A study of Homo sapiens with 9 samples.

Results

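RORA, the gene of the nuclear receptor RORα, had no read in any LIM1215-parental library and was counted in every library of both cetuximab-resistant lines, and of the 9 circadian clock genes described with it some were higher and some lower. NR1D1 (REV-ERBα) was about 2-fold higher in LIM1215-R1 and LIM1215-R2, BHLHE40 (DEC1) and CRY1 were higher by smaller steps, PER2 and CRY2 were lower, and PER1, PER3 and DBP did not pass the test in either line. The gene group described here is RORA, NR1D1, NR1D2, PER1, PER2, PER3, CRY1, CRY2, DBP and BHLHE40, found by symbol in all 9 count tables. All 10 were found among 58920 listed genes, and all 10 were among the 19102 genes tested. RORA was selected on these libraries because its parental counts are 0, so its levels against LIM1215-parental are given as a description with no test. It passed the filter on low counts only through the resistant lines. The other 9 genes were also named with earlier results of these data known.

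LIM1215 is a human colorectal cancer cell line that is sensitive to cetuximab, an antibody against the EGF receptor. The 2 resistant populations were raised in parallel from it under rising cetuximab and are mixed populations, not single clones, while LIM1215-parental was kept alongside without the drug. Per the study, cells with HRAS mutations are present in the resistant populations, with a different mutation in LIM1215-R1 and in LIM1215-R2. All 3 lines were grown in RPMI with serum. After selection the resistant cells were, unless stated otherwise, kept in cetuximab, which was taken away for a few passages ahead of drug treatments. How long it had been absent when RNA was taken is not stated. Each line was sequenced in 3 libraries of poly(A) RNA, taken from basal culture with no treatment, and per the supplement of the study the 3 are technical replicates. The p-values below therefore measure the spread between these libraries, which may be technical, and a difference between lines cannot be told apart from a difference between the cultures that were harvested.

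The molecular clock is a feedback loop of transcription. CLOCK or NPAS2 pairs with BMAL1 and binds E-boxes in the PER, CRY, REV-ERB, DBP and BHLHE40 genes, and the PER and CRY proteins then return to block the pair. RORα activates and the REV-ERBs repress genes with a ROR response element (RORE), among them BMAL1, and DBP acts through D-boxes. In the intestinal epithelium the clock is known for timing cell division and nutrient uptake. The hour of harvest, and whether the cultures were synchronised, are not given in the sources used here, so phase and mean level of a cycling gene cannot be told apart.

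The libraries held 13737416 to 18725014 counts with 20379 to 21269 genes counted, and a count of 3 corresponded to 0.158 to 0.217 CPM (read counts scaled to a common library total, with TMM factors). Of 10 markers of colorectal epithelium, 9 were counted in every library and KRT20 was at 0 in all, and their summed level was 12500 to 12874 CPM in LIM1215-parental, 16221 to 16547 for LIM1215-R1 and 14705 to 15142 for LIM1215-R2. That sum was carried mainly by KRT8 and KRT18, which were called higher in both resistant lines, as were CEACAM5 and VIL1, while EPCAM, CDX1, CDX2, CDH17 and LGALS4 were called lower in both (for the intestinal transcription factor CDX1, -0.85 and -0.65 on the log2 scale, edgeR adjusted p = 3.91e-13 and 9.23e-11). Of 10 markers of fibroblasts, leukocytes and endothelium, 8 were under 1 CPM in every library, COL1A2, PTPRC and CD3E were at 0, and the summed level was at most 3.30 CPM. Calls are edgeR quasi-likelihood tests over the 19102 genes with Benjamini-Hochberg adjustment, with 0.01 as the limit for the adjusted p, and levels are CPM for replicates 1, 2 and 3 in order (n = 3 libraries per line).

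The start regions of the members hold several matches to the elements named above. They are shown here because the clock's own factors are known to bind elements of these forms. RefSeq windows on GRCh38.p14 were searched over the 250 bases before each start, on both strands, for the E-box CACGTG, the E-prime box CACGTT, the D-box as TTATGTAA, TTATGCAA or TTACGTAA, and the RORE as TAGGTCA or TGGGTCA. Over 35116 such windows of all genes, 6.34% held the E-box, 4.55% the E-prime box, 1.72% a D-box and 4.82% a RORE. In the runs below, written 5′ to 3′ on the gene's strand, capitals mark the matches.
NR1D1: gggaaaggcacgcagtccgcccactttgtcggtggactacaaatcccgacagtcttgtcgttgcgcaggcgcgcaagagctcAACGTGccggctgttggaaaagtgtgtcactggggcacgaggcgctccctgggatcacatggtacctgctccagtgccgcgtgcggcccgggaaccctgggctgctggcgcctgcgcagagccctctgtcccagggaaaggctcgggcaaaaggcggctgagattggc
NR1D2: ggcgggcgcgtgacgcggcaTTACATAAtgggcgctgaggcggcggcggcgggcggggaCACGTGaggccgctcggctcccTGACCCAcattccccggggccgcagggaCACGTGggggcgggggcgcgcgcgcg
BHLHE40: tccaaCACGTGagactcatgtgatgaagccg
CRY1: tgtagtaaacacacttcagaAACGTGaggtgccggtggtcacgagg
CRY2, distal: acatggtaggAACGTGagggggcggg
CRY2, proximal: tgcggcgtcaTAGGTCActgggcgggc
PER2: cgcgcgcggtCACGTTttccactatg
PER1, distal: cacccaggtcCACGTGcgcccgtgtg
PER1, proximal: gtgcccggcaTTATGCAAcccgcctccc
PER3: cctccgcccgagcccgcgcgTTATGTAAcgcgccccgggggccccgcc
RORA: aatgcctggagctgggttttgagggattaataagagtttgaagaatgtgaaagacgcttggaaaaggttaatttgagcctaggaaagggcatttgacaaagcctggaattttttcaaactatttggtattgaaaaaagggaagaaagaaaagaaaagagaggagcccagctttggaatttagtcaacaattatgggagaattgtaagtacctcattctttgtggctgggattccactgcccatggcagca

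The NR1D1 run (chr17:40100590-40100839, minus strand) holds an E-prime box 168 bases before the start. NR1D2 (chr3:23945907-23946041, plus strand) was the densest of the members, with E-boxes 155 and 105 bases before the start, a D-box at 194 and a RORE at 133. BHLHE40 (chr3:4979187-4979217, plus) has an E-box at 245 bases, and CRY1 (chr12:107093613-107093658, minus) an E-prime box at 89. CRY2 has an E-prime box at 188 (chr11:45847277-45847302, plus) and a RORE at 65 (chr11:45847400-45847426), and both runs lie in part in annotated CRY2 exons. The PER2 run (chr2:238288792-238288817, minus), with an E-prime box at 197, lies wholly inside an exon of another PER2 transcript. PER1 carries an E-box at 173 (chr17:8152562-8152587, minus) and a D-box at 30 (chr17:8152417-8152444), the latter run in part in a PER1 exon, and PER3 a D-box at 177 (chr1:7784094-7784141, plus). The windows searched hold 2 RefSeq starts for NR1D2, CRY2 and PER3. Distances are to the second for NR1D2 and CRY2 and to the first for PER3. Neither RORA nor DBP had a match in this window, which says only that these letters are not there. The RORA run (chr15:60627531-60627780, minus) precedes the 1 RORA start among the windows searched. That start lies inside the annotated gene (chr15:60488284-61229302, minus strand), and any other start of RORA was not searched. Gene-level counts do not tell which start was used. These matches are letters in a sequence and were not measured as binding sites.

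RORA itself was at 0 counts in all 3 parental libraries. LIM1215-R1 had 324, 310 and 288 counts, which are 19.9, 19.5 and 18.0 CPM, and LIM1215-R2 had 373, 364 and 321 counts, which are 22.2, 22.5 and 21.0 CPM. The parental libraries thus stand wholly apart from the other 6, which is what the gene was chosen for. Against the limit that a count of 0 allows over the parental group (3 counts, 0.0602 CPM), the mean of 19.1 ± 0.972 CPM (SD) in LIM1215-R1 was at least 318-fold higher and the mean of 21.9 ± 0.826 CPM in LIM1215-R2 at least 364-fold higher. These limits cover counting error only. Between the resistant lines, which the choice of RORA did not use, every LIM1215-R2 library was above every LIM1215-R1 library, but the log2 fold change of 0.20 (SE 0.0903, 95% interval 0.01 to 0.38) did not pass (edgeR adjusted p = 0.177).

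**Figure D1:**
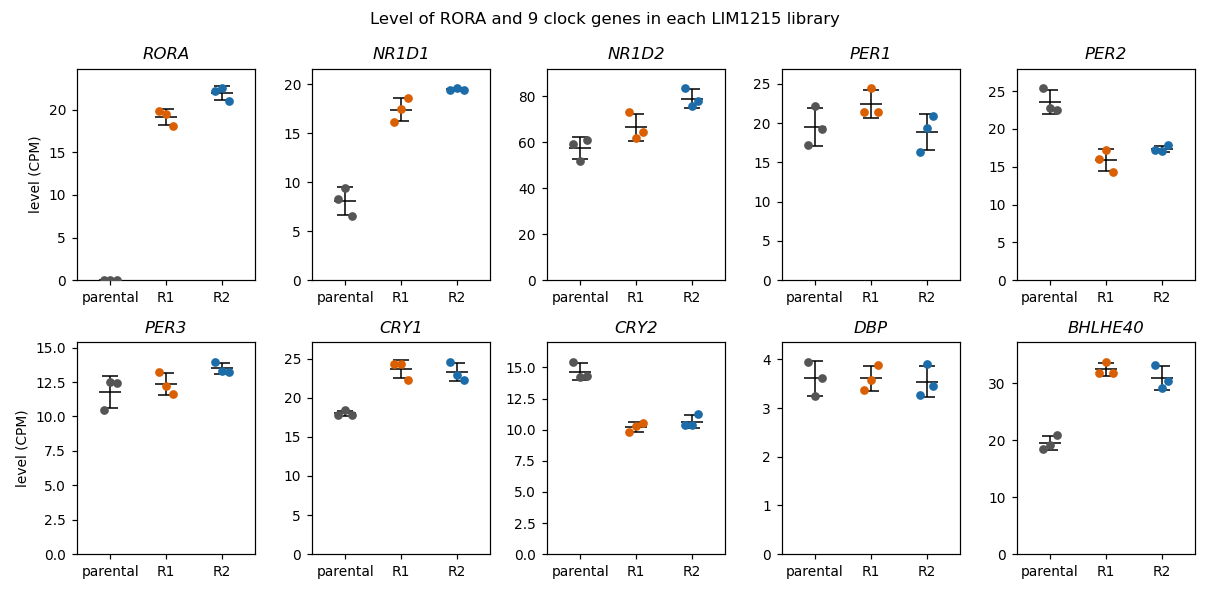
Level of each of the 10 genes in CPM (y axis, from 0) in the 3 libraries of each line (points), with the mean and SD (bars). RORA lies at 0 in the parental libraries and between 18.0 and 22.5 CPM in the other 6, NR1D1 and BHLHE40 are higher in both resistant lines, and PER2 and CRY2 are lower.

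RORA has antisense neighbours that were matched by their own symbols. RORA-AS1, a long non-coding RNA that overlaps 564 exon bases of RORA on the other strand, was at 0.767, 0.795 and 0.525 CPM in LIM1215-parental, 0.184, 0.502 and 0.250 in LIM1215-R1 and 0.119, 0.124 and 0.327 in LIM1215-R2. Its parental libraries were the highest, so the antisense RNA did not share the pattern of RORA, and neither difference passed (log2 fold change -1.12, edgeR adjusted p = 0.0897, and -1.84, edgeR adjusted p = 0.0123). In LIM1215-R2 it passed without LIM1215-R2 replicate 3 (-2.43, edgeR adjusted p = 0.00818) and with no filter on low counts (edgeR adjusted p = 0.00915), and with DESeq2's shrinkage the value was -0.59. RORA-AS2 had no count in any library. The libraries were made with a stranded kit and the names of the count tables mark them as reverse-strand counts, so as far as these names go antisense partners were counted apart.

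Of the nearest tested protein-coding genes on chromosome 15, TPM1 alone was called higher in both resistant lines, and none lacked parental counts as RORA did. On the side of lower coordinates, ICE2, 9.1 kb away, changed by -0.24 and -0.03 (log2, LIM1215-R1 and LIM1215-R2 against parental), ANXA2 at 85.4 kb by 0.16 and -0.15, and BNIP2 at 798.9 kb by -0.22 and -0.15. On the other side, VPS13C at 623.1 kb changed by -0.39 and -0.10, TLN2 (talin 2, a link from integrins to actin) at 1161.2 kb by -0.87 and -0.76, and TPM1 (tropomyosin 1) at 1813.3 kb by 0.61 and 0.66. In LIM1215-R1, 2 of the 6 were called higher (ANXA2 and TPM1) and 3 lower (ICE2, VPS13C and TLN2), where 14.0% and 13.4% of all genes tested were called. In LIM1215-R2, 1 was higher (TPM1) and 2 lower (ANXA2 and TLN2), against 12.3% and 11.6% of all genes. The call of ICE2 was lost in 12 of 19 alternatives (adjusted p of up to 0.165), and that of ANXA2 in LIM1215-R2 without parental replicate 1 or LIM1215-R2 replicate 1 or 2 (adjusted p of up to 0.0176). None of the 6 was at 0 in LIM1215-parental, and the lowest parental mean among them was 37.2 CPM, for BNIP2.

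**Figure D2:**
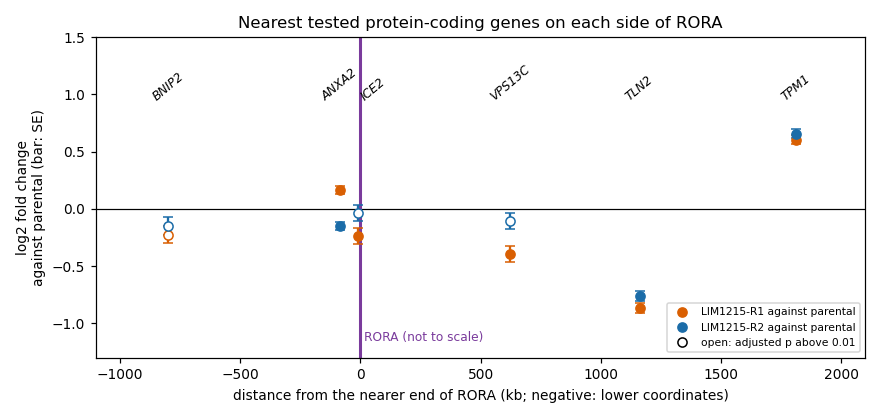
Log2 fold change against LIM1215-parental with its SE (y axis) of the 3 nearest tested protein-coding genes on each side of RORA, by distance from the nearer end of RORA in kb (x axis). Filled points were called, and the values run from -0.87 for TLN2 to 0.66 for TPM1 with no common direction.

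The 2 REV-ERB receptors, which recognise the same element as RORα and repress from it, were both measured well above the floor. NR1D1 (chr17:40092793-40100589, minus strand) was at 8.32, 9.39 and 6.51 CPM in LIM1215-parental, 16.2, 17.4 and 18.6 CPM in LIM1215-R1 and 19.4, 19.6 and 19.4 CPM in LIM1215-R2. Every resistant library lay above every parental one. NR1D1 rose by 1.13 on the log2 scale (SE 0.113, edgeR adjusted p = 5.43e-09) in LIM1215-R1 and by 1.29 (SE 0.111, edgeR adjusted p = 3.09e-10) in LIM1215-R2, ratios of 2.16 and 2.41 and the widest of the 9 genes.

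The 3′ end of NR1D1 overlaps that of THRA, the thyroid hormone receptor α gene on the opposite strand, over 473 exon bases, 18.0% of its exon length. THRA, named here after its values were seen, fell from a mean of 185.9 CPM in LIM1215-parental to 112.5 in LIM1215-R1 and 110.5 in LIM1215-R2 (log2 fold change -0.72, edgeR adjusted p = 3.76e-10, and -0.75, edgeR adjusted p = 1.87e-10), opposite to NR1D1.

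NR1D2 (REV-ERBβ, chr3:23945286-23980617, plus strand) was at 59.4, 51.8 and 60.8 CPM in LIM1215-parental, 73.1, 61.9 and 64.4 in LIM1215-R1 and 83.6, 75.5 and 77.7 in LIM1215-R2. The groups do not overlap, and the step was smaller than that of NR1D1. In LIM1215-R2 it rose by 0.46 on the log2 scale (SE 0.0691, edgeR adjusted p = 5.62e-06), while in LIM1215-R1 the log2 fold change of 0.21 (SE 0.0699) missed the threshold (edgeR adjusted p = 0.0198). The difference between the resistant lines was 0.25 (95% interval 0.11 to 0.39) and missed it as well (edgeR adjusted p = 0.0148). With 1 library left out, the LIM1215-R1 value ran from 0.14 (edgeR adjusted p = 0.146) without LIM1215-R1 replicate 1 and 0.15 (edgeR adjusted p = 0.103) without parental replicate 2 to 0.26 without LIM1215-R1 replicate 2, where it passed (edgeR adjusted p = 0.00558), and without LIM1215-R1 replicate 1 or parental replicate 2 the difference between the resistant lines passed (0.32 and 0.25, edgeR adjusted p = 0.00166 and 0.00405).

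Levels of different genes can be set side by side only per length, so CPM were divided by kilobases of annotated exon. On that scale NR1D1 made up 23.7% ± 4.73 of the REV-ERB pair in LIM1215-parental, 36.7% ± 3.35 for LIM1215-R1 and 35.2% ± 1.32 for LIM1215-R2, and NR1D2 remained the more abundant of the pair in every library. RORA, at 1.12 and 1.29 CPM per kb in the resistant lines, was 6.21% and 6.12% of the summed REV-ERB level. The 17.023 kb of exon counted for RORA include all its alternative exons, which lowers its value per kb.

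BHLHE40 (chr3:4979437-4985323, plus strand) encodes DEC1, an E-box repressor outside the PER and CRY complex. It was at 18.5, 19.1 and 21.0 CPM in LIM1215-parental, 31.7, 33.8 and 31.7 in LIM1215-R1 and 33.2, 29.2 and 30.4 in LIM1215-R2. All 6 resistant libraries were above the parental ones, with a rise of 0.73 (SE 0.0800, edgeR adjusted p = 3.01e-08) and 0.66 (SE 0.0804, edgeR adjusted p = 1.67e-07) on the log2 scale. BHLHE40-AS1 overlaps 451 of its exon bases on the other strand and had 44 counts over the 9 libraries. Its paralog BHLHE41 (DEC2) had at most 1 count in any library and was not tested.

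The CRY genes, whose proteins carry the repression of CLOCK and BMAL1, moved in opposite directions. CRY1 (chr12:106991364-107093549, minus strand) was at 17.8, 18.4 and 17.8 CPM in LIM1215-parental, 24.4, 24.4 and 22.3 in LIM1215-R1 and 24.6, 23.0 and 22.3 in LIM1215-R2. The parental libraries were the lowest, and CRY1 rose by 0.40 (SE 0.0821, edgeR adjusted p = 0.000328) and 0.37 (SE 0.0822, edgeR adjusted p = 0.000713) on the log2 scale.

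CRY2 (chr11:45847118-45883248, plus strand) was at 15.5, 14.2 and 14.3 CPM in LIM1215-parental, 9.81, 10.3 and 10.6 in LIM1215-R1 and 10.4, 10.3 and 11.2 in LIM1215-R2. Here the parental libraries were the highest, and CRY2 fell by 0.52 (SE 0.1003, edgeR adjusted p = 0.000141) and 0.46 (SE 0.0997, edgeR adjusted p = 0.000541) on the log2 scale. Per kilobase, CRY1 was 61.4% ± 1.40 of the CRY pair in LIM1215-parental, 75.0% ± 1.56 for LIM1215-R1 and 73.9% ± 1.78 for LIM1215-R2. Their summed level per kb was 6.13, 6.60 and 6.59 in the 3 lines.

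Of the PER genes, whose proteins partner the CRYs, PER2 alone passed the test. PER2 (chr2:238244044-238290102, minus strand) was at 25.4, 22.8 and 22.5 CPM in LIM1215-parental, 16.0, 17.2 and 14.3 in LIM1215-R1 and 17.2, 17.1 and 17.8 in LIM1215-R2. No resistant library reached the parental range, and PER2 fell by 0.57 (SE 0.0892, edgeR adjusted p = 8.3e-06) and 0.44 (SE 0.0881, edgeR adjusted p = 0.000245) on the log2 scale.

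PER1 (chr17:8140472-8156506, minus strand) was at 17.2, 22.1 and 19.2 CPM in LIM1215-parental, 21.4, 24.5 and 21.5 in LIM1215-R1 and 16.4, 19.3 and 20.9 in LIM1215-R2. These ranges overlap between parental and each resistant line. The log2 fold changes were 0.21 (95% interval 0.00 to 0.41, edgeR adjusted p = 0.111) and -0.05 (interval -0.26 to 0.16, edgeR adjusted p = 0.793). Among the 10 genes, PER1 had the largest difference between the resistant lines in size, -0.25 in LIM1215-R2 against LIM1215-R1 (interval -0.46 to -0.05), which did not pass (edgeR adjusted p = 0.104).

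PER3 (chr1:7784291-7845177, plus strand) was at 10.4, 12.5 and 12.4 CPM in LIM1215-parental, 13.2, 12.2 and 11.6 in LIM1215-R1 and 14.0, 13.3 and 13.2 in LIM1215-R2. The LIM1215-R1 libraries overlap the parental ones and the LIM1215-R2 libraries lie just above them. Neither log2 fold change passed, at 0.07 (interval -0.14 to 0.29, edgeR adjusted p = 0.649) and 0.20 (interval -0.01 to 0.41, edgeR adjusted p = 0.158). Within the PER group per kilobase, PER2 went from 44.1% ± 4.33 to 32.1% ± 0.914 and 36.1% ± 1.23, and PER1 was at 36.8% ± 3.19, 46.0% ± 1.75 and 39.5% ± 3.09. The summed level of the PER genes per kb was 7.56 ± 0.302, 6.96 ± 0.455 and 6.81 ± 0.318 in the 3 lines. That of the CRY pair went the other way, at 6.13, 6.60 and 6.59. The summed level of the 5 PER and CRY genes per kb was 13.7 ± 0.312, 13.6 ± 0.644 and 13.4 ± 0.174, so the sum of the 5 differed less than their make-up. These sums depend on the annotated exon lengths.

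**Figure D3:**
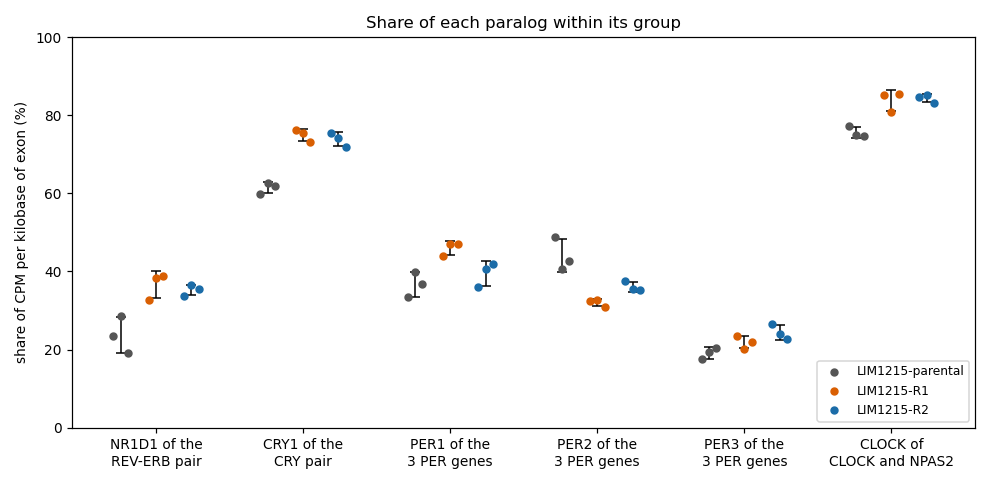
Share of each gene in its group, in % of CPM per kilobase of exon (y axis), in each library (points) with SD around the mean (bars), coloured by line. CRY1 goes from 61.4% of the CRY pair to 75.0% and 73.9%, and NR1D1 from 23.7% of the REV-ERB pair to 36.7% and 35.2%.

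DBP (chr19:48630030-48637379, minus strand), a D-box activator that is a classic output gene of the CLOCK and BMAL1 pair, had the lowest CPM of the 9 genes. It was at 3.95, 3.25 and 3.62 CPM in LIM1215-parental, 3.37, 3.58 and 3.88 in LIM1215-R1 and 3.27, 3.90 and 3.46 in LIM1215-R2. The 3 lines overlap almost fully. The log2 fold changes were -0.01 (95% interval -0.36 to 0.34) and -0.03 (interval -0.38 to 0.32), with edgeR adjusted p = 0.985 and 0.914, so changes within these intervals were not detectable at this depth. DBP shares 661 exon bases with SPHK2 on the other strand.

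Counted over the 9 genes other than RORA, 3 were higher in LIM1215-R1 (NR1D1, CRY1 and BHLHE40), where 14.0% of all genes tested were called higher, and 2 were lower (PER2 and CRY2), where 13.4% were called lower. In LIM1215-R2, 4 were higher (the same 3 and NR1D2) against 12.3% of all genes, and 2 were lower (PER2 and CRY2) against 11.6%. The median log2 fold change of the 9 was 0.21 and 0.20, and that of all genes tested was -0.01 and -0.00. The 9 were chosen with earlier results of these data known. Their counts and medians are therefore a description and cannot be read as an excess over all genes. A call that also needed a log2 change of 1.5 or more in size, the bar set by the study, was reached by 0 of the 9 in either line with edgeR and by 0 with the DESeq2 Wald test, where 5.14% and 4.82% of all genes reached it with edgeR. At an unadjusted edgeR p under 0.05 there were 7 and 6 of the 9. The share of all genes at that looser limit is not given here, so these 2 counts have no background to be read against. The values of both lines rest on the same parental libraries.

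Between LIM1215-R2 and LIM1215-R1, 0 of the 10 genes were called by edgeR, where 3.39% of all genes were called higher and 3.77% lower, and 0.764% had in addition a log2 change of 1.5 or more in size. At an unadjusted p under 0.05 there were 3 (RORA, NR1D2 and PER1), again without the share of all genes at that limit. The DESeq2 Wald test called 0. The intervals of the difference reach furthest for PER1 (-0.46), NR1D2 (0.39), DBP (-0.38), RORA (0.38) and NR1D1 (0.37), so differences of these sizes between the resistant lines are within what the libraries allow.

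**Figure D4:**
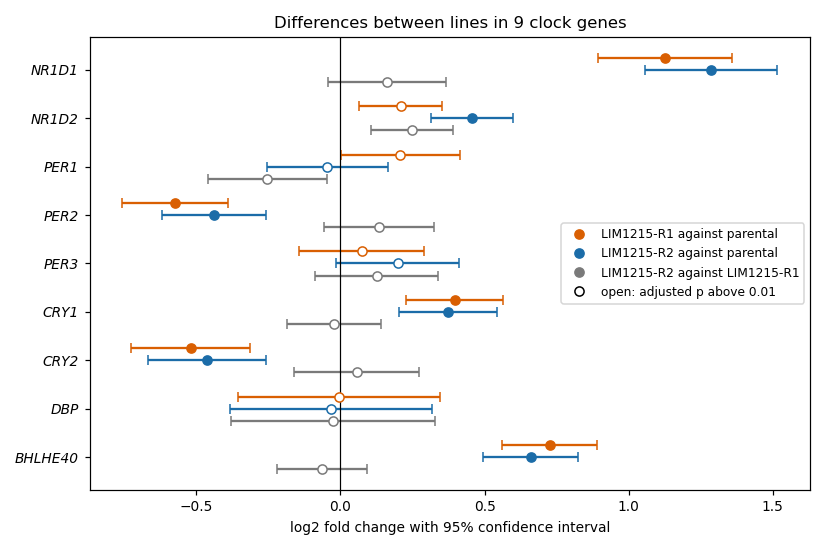
Log2 fold change with its 95% confidence interval (x axis) of the 9 genes other than RORA, for LIM1215-R1 and LIM1215-R2 against LIM1215-parental and for LIM1215-R2 against LIM1215-R1; open points have an edgeR adjusted p above 0.01. NR1D1 lies furthest to the right at 1.13 and 1.29, PER2 furthest to the left in LIM1215-R1 at -0.57 and CRY2 in LIM1215-R2 at -0.46, and all points of the direct comparison are open.

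Ranked by CPM per kb, NR1D2 was first in every line (9.90 in LIM1215-parental, 11.5 for LIM1215-R1 and 13.6 for LIM1215-R2) and BHLHE40 was next (5.56, 9.22 and 8.80). In LIM1215-parental CRY1 (3.77), PER2 (3.33), NR1D1 (3.07), PER1 (2.79), CRY2 (2.36), PER3 (1.45) and DBP (0.557) followed, with RORA at 0. The libraries of PER2 and NR1D1, of NR1D1 and PER1, and of PER1 and CRY2 overlapped there, so these neighbours do not differ beyond their spread. In the resistant lines NR1D1 stood at the third place (6.62 and 7.40), above CRY1 (4.95 and 4.87). PER1 (3.21 and 2.69), PER2 (2.24 and 2.45), CRY2 (1.65 and 1.72), PER3 (1.52 and 1.66), RORA (1.12 and 1.29) and DBP (0.557 and 0.547) followed in both, where CRY2 and PER3 overlapped in each line and PER1 and PER2 in LIM1215-R2. These ranks depend on exon lengths that count every annotated exon of a gene. For DBP that length is 6.485 kb, most of its locus (chr19:48630030-48637379), which lowers its value per kb. Its last place is therefore uncertain.

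The activating arm, from a list of 30 further clock genes of which 27 could be tested, was led by CLOCK, the histone acetyltransferase partner of BMAL1. CLOCK was at 95.5, 84.2 and 86.9 CPM in LIM1215-parental, 210.8, 189.2 and 212.7 in LIM1215-R1 and 211.4, 210.1 and 189.5 in LIM1215-R2. All resistant libraries were far above the parental ones, with a rise of 1.20 on the log2 scale in each line (SE 0.0587, edgeR adjusted p = 2.17e-15 and 2.28e-15). NPAS2, its paralog, rose by 0.46 (edgeR adjusted p = 3.37e-05) and 0.39 (edgeR adjusted p = 0.000291). BMAL1 (listed under its older symbol ARNTL), the RORα and REV-ERB target of the loop, was at a mean of 8.91, 9.83 and 9.23 CPM, and neither 0.14 (95% interval -0.11 to 0.39, edgeR adjusted p = 0.424) nor 0.05 (interval -0.21 to 0.30, edgeR adjusted p = 0.832) passed.

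In the 250 bases before the start, CLOCK had a RORE at 217 and an E-prime box at 187 for 1 of its RefSeq starts (chr4:55545932), and BMAL1 had no match. Past the start, only BMAL1 was searched. BMAL1 holds a RORE just past the second of its 2 RefSeq starts searched (chr11:13277810-13277836, plus strand, capitals mark the RORE). It was looked for and is printed here because RORα and the REV-ERBs are known to act on the gene through elements of this kind.
BMAL1: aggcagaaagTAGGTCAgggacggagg
BMAL2 (listed as ARNTL2) was called in LIM1215-R2 (0.23, edgeR adjusted p = 0.00502) and not in LIM1215-R1 (0.11, edgeR adjusted p = 0.216). That call was lost, at an adjusted p of up to 0.039, without any 1 parental library and without LIM1215-R2 replicate 1 or 2. Summed per kb, CLOCK and NPAS2 over BMAL1 and BMAL2 went from 0.928 ± 0.0373 to 1.79 ± 0.0958 in LIM1215-R1 and 1.65 ± 0.0171 in LIM1215-R2.

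Elsewhere on the list few genes passed. NFIL3, the D-box repressor that opposes DBP, fell by 0.52 (edgeR adjusted p = 0.000468) and 0.62 (edgeR adjusted p = 7.72e-05) on the log2 scale, while the DBP relatives TEF and HLF did not pass. Among the cofactors, NCOR1, the corepressor that the REV-ERBs recruit, fell by 0.48 (edgeR adjusted p = 8.57e-10) and 0.25 (edgeR adjusted p = 5.17e-05), and NRIP1, a nuclear receptor cofactor, fell by 0.80 (edgeR adjusted p = 1.23e-09) and 0.65 (edgeR adjusted p = 4.25e-08). HDAC3, the deacetylase that works with NCOR1, was at -0.06 and -0.03 and did not pass. NCOR1 was the 1 gene of the list called between the resistant lines, by 0.24 higher in LIM1215-R2 (edgeR adjusted p = 0.000471).

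USP2, a deubiquitinase with clock proteins among its substrates, was the 1 gene of the list past a log2 fold change of 1.5. It was at 0.413, 0.289 and 0.420 CPM in LIM1215-parental, 3.01, 3.52 and 4.07 in LIM1215-R1 and 2.79, 2.66 and 1.83 in LIM1215-R2. It was low in all lines and higher in every resistant library, by 3.19 (SE 0.295, edgeR adjusted p = 1.19e-09) and 2.66 (SE 0.314, edgeR adjusted p = 1.04e-07) on the log2 scale, or 1.90 and 1.48 with DESeq2's shrinkage of the values. USP2-AS1 overlaps 1142 exon bases of USP2 (25.2%) on the other strand. Over all libraries it had 185 counts, and USP2 had 307. The 6 kinases that phosphorylate PER and CRY proteins or their partners (among them CSNK1D, CSNK1E and GSK3B) had 0 calls in either line by edgeR. The DESeq2 Wald test also called 0, and 1 (CSNK1D) and 0 had an unadjusted edgeR p under 0.05. Over all genes tested, edgeR called 14.0% higher and 13.4% lower in LIM1215-R1, and 12.3% and 11.6% in LIM1215-R2. With only 6 genes, 0 calls cannot be read as a result about the kinases. The symbol CSNK1E was at under 1 CPM throughout and shares same-strand exons with TPTEP2-CSNK1E, so its count is uncertain. CSNK2B, at 0.649 to 1.57 CPM, shares 368 same-strand exon bases with LY6G5B, so its count is uncertain as well.

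Over the 27 tested genes, 3 were higher and 3 lower in LIM1215-R1, and 4 higher and 3 lower in LIM1215-R2. Those are 11.1% and 11.1%, and 14.8% and 11.1%, near the shares of all genes given above. The median log2 fold change was -0.01 and 0.01. RORB, a paralog of RORA, was at 0 in all libraries.

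**Figure D5:**
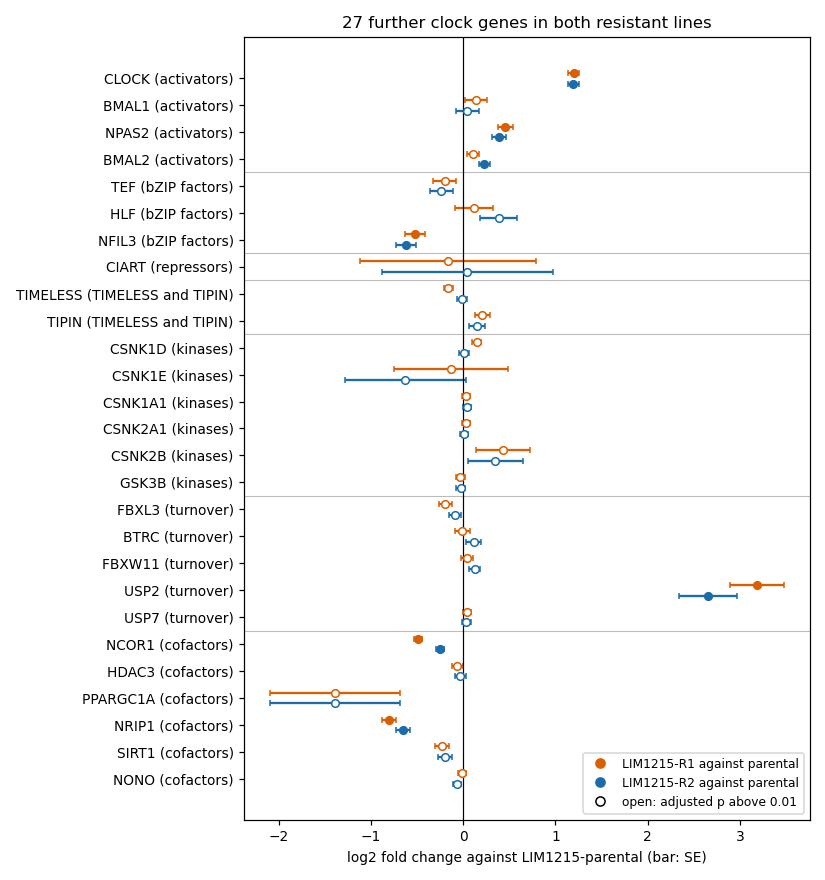
Log2 fold change against LIM1215-parental with its SE (x axis) of the 27 further clock genes tested, by role, for LIM1215-R1 and LIM1215-R2; filled points were called. CLOCK at 1.20 and USP2 at 3.19 and 2.66 are the furthest to the right, and the kinases carry no call.

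Of 6 genes known as ROR or REV-ERB targets in metabolism, of which PPARGC1A is also on the list above, 2 had enough counts to test. CPT1A, the carnitine palmitoyltransferase of the liver, fell by 0.31 (edgeR adjusted p = 7.8e-07) and 0.21 (edgeR adjusted p = 0.000167), and PPARGC1A, at under 1 CPM, did not pass. APOA1, APOA5, APOC3 and G6PC1 had too few counts in this line to be tested.

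Genes whose pattern was among the most like that of RORA, by Pearson's r of log2 CPM over the 9 libraries among genes with a mean of at least 1 CPM, were CYB5B (0.9995), CPE (0.9992), PHLDB2 (0.9991) and PTPRR (0.9990). The 9 points fall into parental and resistant libraries, so r mainly measures that step and carries no test. CYB5B, an outer mitochondrial membrane cytochrome, went from a mean of 301.6 CPM to 636.6 and 648.4. PTPRR, a receptor tyrosine phosphatase that acts on MAP kinases, went from 3.47 to 48.4 and 56.4 CPM, and CPE and PHLDB2 from 27.2 and 82.5 to 104.1 and 438.4 CPM in LIM1215-R2.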

How the data were processed

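The 3 lines were sequenced as poly(A) RNA, in 3 libraries each. The authors aligned reads with STAR to hg38 and deposited raw read counts per gene made with HTSeq 0.9.1; the annotation they counted against is not given in the sources used here. From these counts, the 19102 of 58920 genes whose counts summed to 10 or more were fitted with edgeR 4.0.16 (limma 3.58.1, R 4.3.3) by glmQLFit and glmQLFTest, with TMM scaling and line as the factor, in 1 model over all libraries. SE is the log2 fold change over the root of F. The Benjamini-Hochberg threshold was 0.01 over all genes. The study itself used DESeq2, which was run here as an alternative (version 1.42.0). The members, lists and tests were chosen with earlier results of these data known. Genes were named by that list, with the 3 nearest tested protein-coding genes on each side of RORA and the 5 genes most like it; some of these genes are not reported here. BMAL1, BMAL2 and FBXL21 were found under ARNTL, ARNTL2 and FBXL21P. Exon lengths and positions come from GENCODE on GRCh38, promoter sequences from RefSeq (GRCh38.p14), where all 10 members were matched. Replicates of a line differed beyond sampling noise (chi-square over degrees of freedom of 1.71 to 5.05). Deviations of same-numbered libraries of different lines had correlations of -0.02 to 0.10 (0 of 9 pairs over 0.1), and those of other numbers -0.11 to 0.06. These are weak, and numbers were not used to pair libraries in the main fit, but a small shared part is not excluded. The edgeR steps were tested on simulated data. Other scalings, filters, fits, thresholds and left-out libraries were tried.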

Additional observations from a re-analysis of the deposited data

Results flagged for a closer look

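Both resistant lines were compared with the same parental libraries, and 3 of the genes named around RORA and the clock differed between them by a direct edgeR test of LIM1215-R2 against LIM1215-R1. These were 1 of the 27 tested genes of the wider clock list and 2 of the 6 neighbours of RORA. Over all genes tested, that comparison called 3.39% higher and 3.77% lower. The corepressor NCOR1 was higher in LIM1215-R2 by 0.24 on the log2 scale (edgeR adjusted p = 0.000471), with 225.6, 223.8 and 214.5 CPM against 186.0, 190.9 and 186.6. Of the genes next to RORA on chromosome 15, ANXA2 changed by -0.31 (edgeR adjusted p = 5.47e-07) and VPS13C by 0.29 (edgeR adjusted p = 0.00577). The VPS13C call was lost in 7 of 19 alternatives, down to 0.11 on the log2 scale with trends on GC content and exon length removed. ANXA2 was higher than parental in LIM1215-R1 and lower in LIM1215-R2. None of the 10 members was among them.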

How the results depend on the processing

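NR1D1, CRY1, BHLHE40, PER2 and CRY2 kept their call and direction in both resistant lines, and NR1D2 in LIM1215-R2, under every alternative that asked for no minimum size of change. Over these, the log2 fold change of CRY2 in LIM1215-R1, for example, ran from -0.64 to -0.48. Of 531 alternative values of members, 0 lost a call and 12 gained one, all of NR1D2. A further 21, not called in either fit, had the opposite sign, with sizes of at most 0.06. Over all single genes, 27 of 2640 alternative values lost a call, 44 gained one, 114 uncalled ones changed sign and 0 called ones reversed. With a log2 change of 1.5 or more also required, the members called were 0 in LIM1215-R1 and 0 in LIM1215-R2, and the wider clock list had 1, 1 and 0 calls for LIM1215-R1, LIM1215-R2 and the direct comparison.

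Between LIM1215-R2 and LIM1215-R1 the count of members went from 0 to 1, NR1D2, with no filter on low counts, with total counts only, with the replicate block, at an adjusted p limit of 0.05, and with trends on GC content and exon length removed, with or without the block. Leaving out 1 library at a time gave 0 to 1, with NR1D2 called without parental replicate 2 or LIM1215-R1 replicate 1. The replicate block, which groups libraries by replicate number, gave 6 members in each resistant line against parental, where the fit without it gave 5 and 6. For the wider clock list, an adjusted p limit of 0.05 gave 10 calls in LIM1215-R1. Removing trends on GC content and exon length, an alternative chosen after seeing the data, gave 11 calls there and 12 with the block, and 2 and 4 in the direct comparison, and the cause was not tested. The shares of all genes called at the 0.05 limit or with those trends removed are not given here. These larger counts therefore cannot be read as a result about the clock list. DBP, at a mean of 3.61 CPM in LIM1215-parental, had the widest intervals of the members (-0.36 to 0.34 in LIM1215-R1), so depth limits it most.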
